A study of Homo sapiens with 12 samples.

Results

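Caveolins and cavin 1 build caveolae, the flask-shaped pits of the plasma membrane, and 4 of their genes were followed across the 4 groups of this study: CAV1, CAV2, CAV3 and CAVIN1 (formerly PTRF). They were read by 8 of the 22215 probe sets of the array that were not controls, and were 4 of 11963 genes with a probe set of their own. A probe set was taken as a member where the array annotation gave it 1 gene symbol and that symbol was one of the 4. A filter on dim probe sets (mean signal in the bottom 40%) kept 7 of the 8 and dropped the dimmest CAV2 probe set (213426_s_at). The genes were chosen by their 4-hydroxytamoxifen changes in these data, so those changes are given as a description with no test.

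RD cells, an established line from an embryonal rhabdomyosarcoma, had been transduced with PAX3-FKHR-ER or with the vector pK1 alone. PAX3-FKHR is the fusion transcription factor of alveolar rhabdomyosarcoma, and the modified estrogen receptor ligand-binding domain joined to it makes its activity depend on 4-hydroxytamoxifen (4-OHT). Each construct was kept without 4-OHT or was given 30 nM for 24 h, and each of the 4 groups had 3 arrays, numbered 1 to 3 in the labels. The 2 arrays that share a construct and a number are called a pair here, and whether a number marks 1 transduced population is not said in the labels. Where the samples of a group are not separate populations, the spread between them, which any p-value measures, may be technical. The number of arrays limits the precision of every value.

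Caveolin 1 is the main scaffold protein of caveolae outside striated muscle, caveolin 2 assembles with it, and caveolin 3 takes its place in skeletal and heart muscle. Cavin 1 is the coat protein that caveolin needs to bend the membrane into a caveola. Cells that lack either cavin 1 or the main caveolin form no caveolae, and caveolin 3 and cavin 1 are both genes of inherited muscle disease.

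The arrays numbered 1 stood apart from the rest before any gene was considered. Log2 signals correlated at 0.815 to 0.869 between those 4 arrays and the other 8, against 0.957 to 0.982 among themselves and 0.867 to 0.982 among the 8, and the 24 poly-A control probe sets had median signals of 2.58 to 7.41 on them against 118 to 291. Probe sets of the 2 genes in the fusion separated the constructs without 4-OHT in replicates 2 and 3, where PAX3 read 98.9 and 105 labelled PAX3-FKHR-ER against 41.5 and 30.6 labelled pK1, and FOXO1 (FKHR) 146 and 124 against 52.1 and 36.1. In replicate 1 without 4-OHT they ran the other way, at 17.6 against 49.4 for PAX3 and 142 against 214 for FOXO1, and with 4-OHT they lay close, at 58.9 against 57.8 and 138 against 121, so groups are named by their labels throughout. Of 7 muscle lineage genes, 4 passed the filter: MYOD1 read 1006 to 2098 in replicate 1 and 197 to 1912 in replicates 2 and 3, CHRNA1 1161 to 1530 and 245 to 2560, DES 157 to 343 and 85.6 to 862, and CHRND 415 to 557 and 2.61 to 270. MYF5, MYF6 and PAX7 did not pass, at 0.814 to 61.4. Of 4 endothelial genes, CDH5 (0.87 to 4.03) and VWF (7.47 to 55.8) were under the filter, while PECAM1 read 8.08 to 78.4 in replicate 1 and 32.1 to 84.3 in the others, and TEK 3.19 to 21.5 and 32.6 to 144. Of 4 adipocyte genes, LPL passed at 34.0 to 59.7, and ADIPOQ, PLIN1 and FABP4 lay at 2.23 to 46.9. The part of these differences between replicates in any result was not tested.

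CAV1 and CAV2 are direct neighbours on chromosome 7, with CAV2 before CAV1 and no other gene starting between them, so their upstream sequences are shown beside that of CAV3 for a comparison of genes that lie together with 1 that does not. Each line holds the 250 bases before the first start of the gene in RefSeq (GRCh38.p14, plus strand), 5′ to 3′, at chr7:116524759-116525008 for CAV1, chr7:116499488-116499737 for CAV2 and chr3:8733552-8733801 for CAV3. Capitals mark matches on either strand to GTCAC (the core of a PAX paired-domain site), ATTA (a homeodomain core), CANNTG (the E-box of myogenic factors), GTAAACA (a forkhead site) and GGGCGG (a GC box), and no matches overlapped.
CAV1: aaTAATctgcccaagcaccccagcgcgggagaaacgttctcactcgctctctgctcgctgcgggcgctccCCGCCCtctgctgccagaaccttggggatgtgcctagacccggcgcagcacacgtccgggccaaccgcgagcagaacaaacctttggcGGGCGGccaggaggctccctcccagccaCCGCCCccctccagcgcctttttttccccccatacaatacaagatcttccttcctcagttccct
CAV2: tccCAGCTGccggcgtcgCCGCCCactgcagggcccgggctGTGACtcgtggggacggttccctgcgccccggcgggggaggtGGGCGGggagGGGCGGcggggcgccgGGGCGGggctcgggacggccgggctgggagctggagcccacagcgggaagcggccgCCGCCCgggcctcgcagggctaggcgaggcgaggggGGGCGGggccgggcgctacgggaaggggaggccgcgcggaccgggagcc
CAV3: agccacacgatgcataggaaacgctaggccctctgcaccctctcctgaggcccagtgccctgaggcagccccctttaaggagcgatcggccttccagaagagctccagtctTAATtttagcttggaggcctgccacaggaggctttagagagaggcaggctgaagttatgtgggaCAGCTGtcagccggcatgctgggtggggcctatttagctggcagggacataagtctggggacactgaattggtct
The CAV1 window held 3 GC boxes and 1 ATTA, 248 bases before the start, and no match to the other motifs. CAV2 held 6 GC boxes, 1 GTCAC and 1 E-box, and was the richest in G and C at 83.2%, against 63.6% for CAV1, 57.2% for CAV3 and a median of 58% over 35116 windows of this kind. CAV3 held 1 E-box, 75 bases before the start, and 1 ATTA. Each of these motifs is common: GTCAC was in 37.3% of all windows, ATTA in 47.4%, the E-box in 61.8%, GGGCGG in 42.6% and GTAAACA in 2.98%. A match shows only that the letters are there. CAV1 has 3 starts in the table and CAV2 has 2, of which the first is shown.

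CAV1 was the member with the widest range of signal, and its level followed the replicate number before it followed construct or treatment. On the 4 arrays of replicate 1 its brighter probe set (212097_at) read 3.47 and 1.94 labelled PAX3-FKHR-ER without and with 4-OHT, and 6.35 and 15.4 labelled pK1. On the other 8 arrays the lowest reading was 307 and the highest 2033. The second probe set (203065_s_at) gave 2.81 to 5.82 on the arrays of replicate 1 and 204 to 1380 on the rest. The 2 groups of arrays did not overlap on either probe set, and all CAV1 values of replicate 1 lay under the 16 units added before the log transform. With bounds of under 16 in replicate 1 and over 200 elsewhere, 12 of 22215 probe sets (0.054%) passed on every array, including both CAV1 sets. These bounds lie close to CAV1's own readings of 15.4 and 204, so the share does not show how rare such a gap was. ITGA4, at 1.91 to 7.49 in replicate 1 against 79.4 to 228, had a gap but missed the bounds. The share of all probe sets without overlap was not counted. Others of the 12, looked at after the values were seen, read the gap junction gene GJA1, the NADPH oxidase subunit CYBA, the cochlin gene COCH and the cancer-testis genes MAGEA6 and CTAG2. The fall in signal cannot be told apart from fewer cells that express CAV1, here or in any result below, since each array reads the RNA of a whole culture.

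Within replicates 2 and 3, CAV1 was higher with 4-OHT in both pairs labelled PAX3-FKHR-ER and stayed near its starting level in both pairs labelled pK1. The brighter probe set went from 1069 to 1962 in replicate 2 and from 806 to 2033 in replicate 3 under the fusion label. Under the pK1 label it went from 328 to 307 and from 1229 to 1390. The second probe set gave 580 to 1380 and 469 to 1252 against 204 to 205 and 894 to 856. Within these replicates, readings with 4-OHT under the fusion label lay above every other reading of the same probe set. In replicate 1 they did not, at 1.94 and 2.81. CAV1 was chosen on these changes, and the share of all probe sets that separate in this way was not counted. As folds of signal, the fusion pairs moved by 1.84 to 2.52 on the brighter and 2.38 to 2.67 on the second probe set, and the pK1 pairs by 0.934 to 1.13 and 0.957 to 1.01.

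Expressed as log2(signal + 16), a scale that understates changes of dim probe sets, the brighter CAV1 probe set changed in replicates 2 and 3 by 1.09 ± 0.32 (SD, n = 2 pairs) under the fusion label and 0.04 ± 0.19 under the vector label. The second probe set changed by 1.31 ± 0.11 and -0.03 ± 0.05. With replicate 1 included, the brighter probe set had a mean change of 0.69 ± 0.73 (SD, n = 3 pairs) against 0.19 ± 0.29, and the second 0.83 ± 0.83 against -0.07 ± 0.08. The SD under the fusion label was then about as large as the mean: the replicate 1 pair changed by -0.12 on both probe sets, at signals under 16.

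The order of the CAV1 group means was the same with and without replicate 1, but their spread was not. In replicates 2 and 3 the brighter probe set read 1997 ± 50.4 (SD, n = 2) labelled PAX3-FKHR-ER with 4-OHT, 938 ± 186 without, 848 ± 766 labelled pK1 with 4-OHT and 779 ± 637 without. The last 3 lay within each other's spread. The large SD of the pK1 groups came from a gap between replicate 2, at 307 and 328, and replicate 3, at 1229 and 1390, which was wider than the 4-OHT change in the fusion pairs. Over all 3 replicates the group means were 1332 ± 1153, 626 ± 555, 571 ± 724 and 521 ± 634 (SD, n = 3) in the same order, and no neighbours differed beyond their spread.

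**Figure D1:**
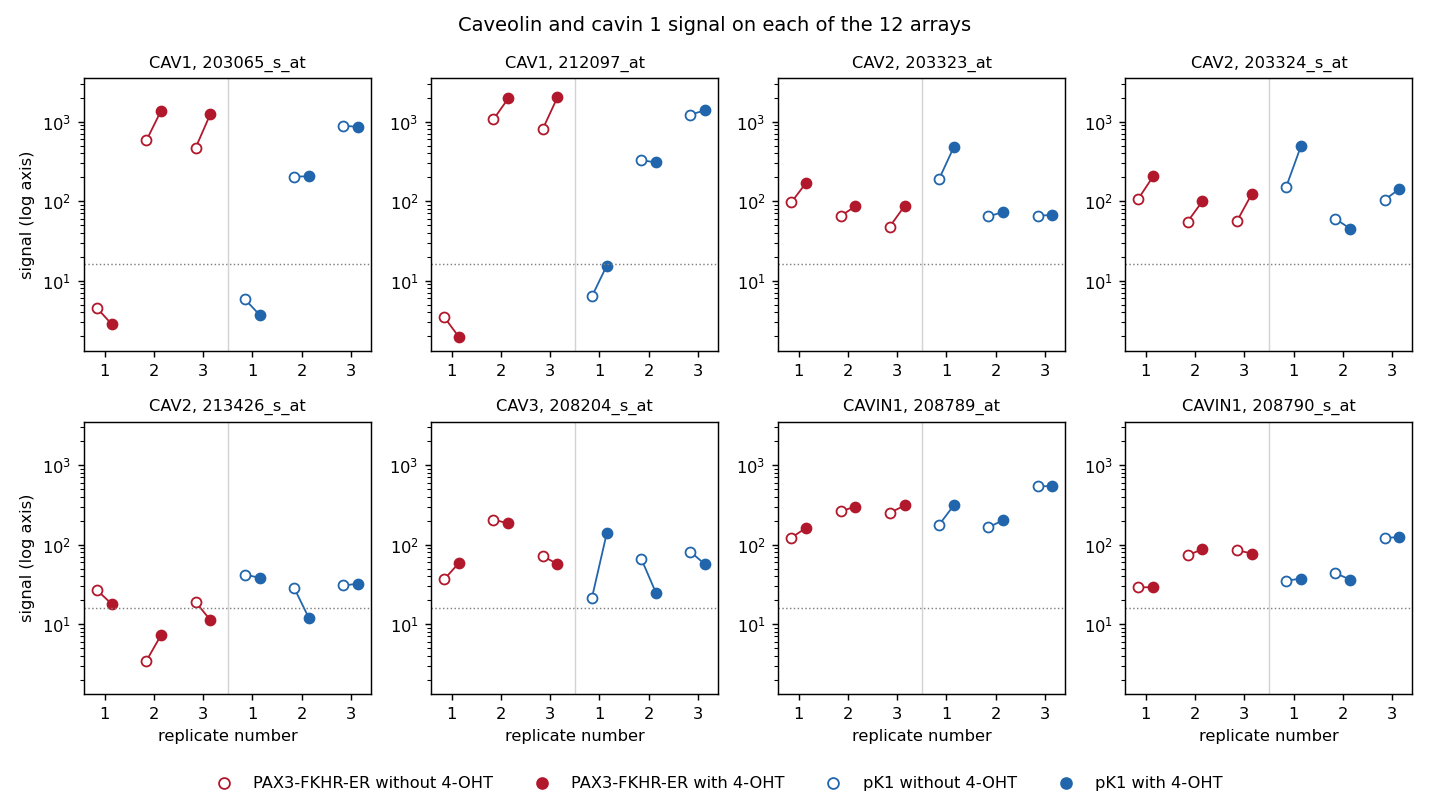
Signal of the 8 member probe sets on each of the 12 arrays (log axis, arbitrary array units), by replicate number within each construct; open points are without and filled points with 4-OHT, a line joins a pair, and the dotted line marks 16, the amount added before the log transform. Both CAV1 probe sets lie under 16 in replicate 1 and over 200 elsewhere, and are higher with 4-OHT in replicates 2 and 3 labelled PAX3-FKHR-ER, while CAV2 probe set 203323_at is highest in replicate 1.

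CAV2, the partner of caveolin 1, did not share its gap between replicates. On the arrays of replicate 1 its brighter probe set (203324_s_at) read 107 without and 205 with 4-OHT under the fusion label, and 150 and 490 under the vector label. In replicates 2 and 3 it went from 55.2 to 99.7 and from 55.8 to 122 under the fusion label, and from 60.02 to 45.03 and from 104 to 143 under the vector label. The highest readings were in replicate 1, though its lowest overlapped the others. The reading was higher with 4-OHT in all 3 pairs under the fusion label and in 2 of 3 under the vector label. A second probe set (203323_at) was higher with 4-OHT in 6 of 6 pairs. It went from 96.4 to 170, from 64.8 to 86.2 and from 47.8 to 87.0 labelled PAX3-FKHR-ER, and from 189 to 479, from 64.2 to 72.9 and from 65.3 to 67.2 labelled pK1. All 4 readings of replicate 1 lay above the other 8 on this probe set, and the largest change was in the vector pair of replicate 1. Such a separation was not particular to CAV2: RBBP6, for 1, read 253 to 274 in replicate 1 and 72.5 to 136 elsewhere. The share of all probe sets that separate so was not counted.

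In log2 terms the brighter CAV2 probe set changed by 0.83 ± 0.12 under the fusion label and 0.56 ± 0.97 under the vector label (SD, n = 3 pairs), and by 0.82 ± 0.17 and 0.04 ± 0.51 in replicates 2 and 3 (n = 2). For 203323_at the changes were 0.58 ± 0.21 and 0.48 ± 0.68 over 3 pairs, and 0.52 ± 0.25 and 0.09 ± 0.08 over 2. The change under the fusion label was larger than its spread with replicate 1 kept in, and its difference from the vector was within the spread of the pairs, at 0.26 ± 0.98 for the brighter probe set and 0.10 ± 0.72 for the other (SD of both constructs combined). Group means over 3 replicates ran from 226 ± 234 (vector with 4-OHT) through 142 ± 55.5 (fusion with) and 105 ± 45.2 (vector without) to 72.8 ± 29.9 (fusion without) on the brighter probe set, with overlap between neighbours. The dimmest CAV2 probe set, under the signal filter, read 3.45 to 42.0 on the 12 arrays and went up in 1 of 3 pairs of each construct.

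CAV3, the caveolin of muscle fibres, was read by 1 probe set (208204_s_at) and varied between replicates of the same label. Without and with 4-OHT it read 36.7 and 58.7, 207 and 185, and 71.7 and 56.9 in replicates 1 to 3 labelled PAX3-FKHR-ER. Labelled pK1 it read 21.5 and 139, 66.5 and 24.7, and 81.1 and 56.2. The 4-OHT reading was lower in all 4 pairs of replicates 2 and 3 and higher in both pairs of replicate 1. Its mean change was 0.03 ± 0.41 under the fusion label and 0.20 ± 1.63 under the vector label (SD, n = 3 pairs), and -0.21 ± 0.08 and -0.72 ± 0.42 in replicates 2 and 3 (n = 2). Group means over 3 replicates were 105 ± 89.7 (fusion without 4-OHT), 100.2 ± 73.4 (fusion with), 73.3 ± 59.0 (vector with) and 56.4 ± 31.1 (vector without). The groups overlapped throughout, and the sign of the change turned under both labels when replicate 1 was left out.

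CAVIN1, which encodes the caveolar coat protein, read 29.0 or more on all arrays and both probe sets, including the arrays on which CAV1 read under 16. Its brighter probe set (208789_at) read 122 and 163, 262 and 301, and 251 and 311 without and with 4-OHT in replicates 1 to 3 labelled PAX3-FKHR-ER. Labelled pK1 it read 177 and 313, 165 and 202, and 544 and 543. The fusion pairs of this probe set moved by a small and even amount, 0.29 ± 0.09 on the log2 scale, and the vector pairs by 0.35 ± 0.39 (SD, n = 3 pairs). Leaving out replicate 1 gave 0.24 ± 0.07 and 0.13 ± 0.19 (n = 2). The second probe set (208790_s_at) was dimmer, at 29.0 to 124, and changed by 0.03 ± 0.17 and -0.04 ± 0.14 over 3 pairs. Group means of the brighter probe set over 3 replicates were 353 ± 174 (vector with 4-OHT), 295 ± 215 (vector without), 258 ± 82.99 (fusion with) and 211 ± 77.7 (fusion without), within each other's spread. Like CAV1, both CAVIN1 probe sets were higher in replicate 3 than in replicate 2 under the vector label, at 544 against 165 and 122 against 43.8 without 4-OHT.

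The difference between constructs in the 4-OHT change was largest for CAV1 in replicates 2 and 3, at 1.05 ± 0.37 and 1.33 ± 0.12 on its brighter and second probe set (log2, SD of both constructs combined, 2 pairs each). It was 0.78 ± 0.54 and 0.42 ± 0.26 for the brighter CAV2 probe set and 203323_at, 0.52 ± 0.43 for CAV3, where the pK1 change was the lower, and 0.11 ± 0.21 and 0.14 ± 0.28 for CAVIN1. With replicate 1 included the CAV1 differences were 0.50 ± 0.79 and 0.90 ± 0.83. With replicate 1 included CAV3 turned to -0.17 ± 1.68 and 208789_at of CAVIN1 to -0.06 ± 0.40, and the CAV2 differences were 0.26 ± 0.98 and 0.10 ± 0.72. In these, and in the brighter CAV1 probe set, the spread exceeded the difference.

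**Figure D2:**
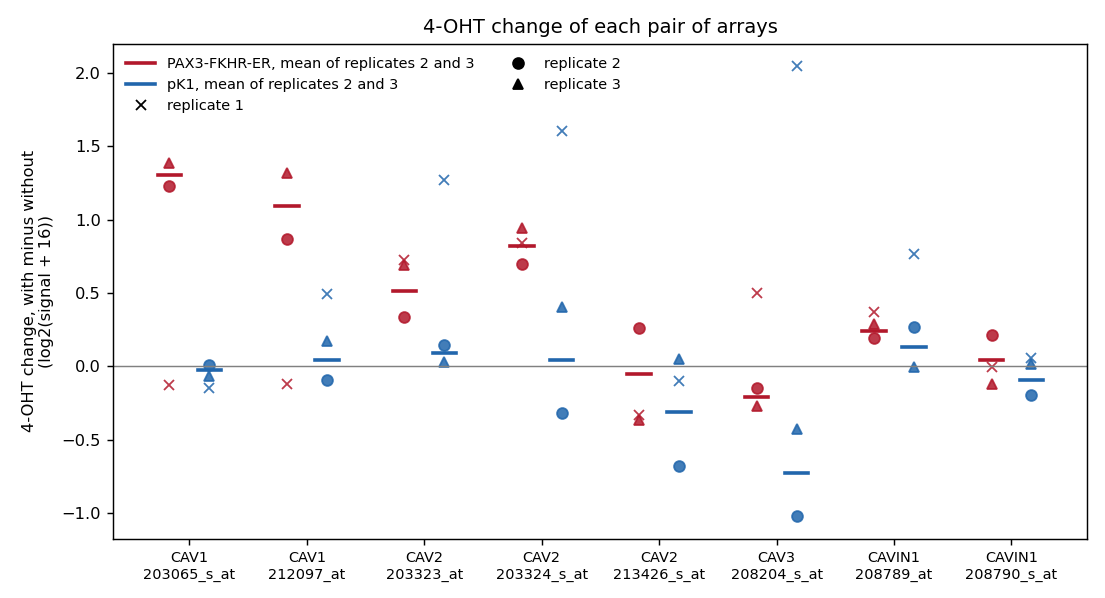
Change with 4-OHT of each member probe set in each pair of arrays (log2(signal + 16), with minus without), red for PAX3-FKHR-ER and blue for pK1, with the symbol giving the replicate number and the bar the mean of replicates 2 and 3. The CAV1 bars stand at 1.31 and 1.09 in red and near 0 in blue, and the replicate 1 pair labelled pK1 has the highest change of the 2 brighter CAV2 probe sets, CAV3 and 208789_at of CAVIN1.

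The constructs were then compared over both treatments, a contrast that is orthogonal in design to the 4-OHT changes used to pick the genes. It is not free of that choice, because a 4-OHT change under only 1 label also shifts the mean of that construct. The without and with arrays of each pair were averaged first, which gave 3 values against 3. For the brighter CAV1 probe set the pair means in replicates 1 to 3 were 4.22, 10.52 and 10.34 under the fusion label and 4.73, 8.38 and 10.37 under the vector label (log2(signal + 16)). The groups overlapped, and the difference was 0.54 ± 1.96 SE (limma adjusted p = 1). None of the 7 member probe sets was called: 0 of 7 had an adjusted p under 0.05 in limma, beside 0% of 13329 probe sets. At an unadjusted p under 0.05 there were 0 of 7, beside 130 of 13329. CAV3 was 0.51 ± 0.45 SE higher and the brighter CAVIN1 probe set -0.34 ± 0.44 SE, each with adjusted p = 1 in limma. In replicates 2 and 3 with the replicate number as a block, which leaves 1 residual degree of freedom, the CAV1 difference was 1.05 ± 0.42 SE (limma adjusted p = 0.595). That fit called 0 of 7 member probe sets beside 0.0675% of all. It had 1 of 7 at an unadjusted p under 0.05, beside 1014 of 13329. The CAV1 difference in replicates 2 and 3 includes the 4-OHT change on which CAV1 was chosen. Its group means on the brighter probe set were 9.88 (fusion) against 9.35 (vector) without 4-OHT, and 10.975 against 9.40 with it. The replicate number as a block on all 12 arrays left the CAV1 difference at 0.54 and lowered its SE to 0.49 (limma adjusted p = 0.964).

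Genes whose level ran most like CAV1 were ranked by Pearson r with its brighter probe set, over 8123 other genes. Over all 12 arrays these were MAGEA12 (r = 0.986) and MAGEA10 (0.986), both cancer-testis antigens, TXNL1, a thioredoxin-like protein (0.985), COL3A1, a fibrillar collagen chain (0.984), and ITGA4, an integrin subunit (0.984). MAGEA12 read 7.26 to 24.2 on the arrays of replicate 1 and 417 to 1299 on the others, and COL3A1 803 to 1036 and 2463 to 6273, so the likeness followed the replicate number. The genes that ran most opposite were RBBP6 (-0.990), CPAP, a centriole protein (-0.983), and CENPU, a centromere protein (-0.983). The 12 arrays share that offset, and probe sets such as that of MAGEA12 whose name ends in x_at can also read related transcripts.

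Over the 8 arrays of replicates 2 and 3 a different set of 5 came first, none of them shared with the first set: STK17B, a kinase (r = 0.987), TGFB1I1, a focal adhesion protein (0.987), PXDN, a peroxidase of the matrix (0.980), ITPKB, an inositol phosphate kinase (0.978), and DNMT3A, a DNA methyltransferase (0.972). Of these, TGFB1I1 kept its likeness over 12 arrays (0.981), and STK17B (0.273), PXDN (-0.216), ITPKB (0.245) and DNMT3A (-0.623) did not. COL3A1 had 0.966 over the 8 arrays. Among the members, the second CAV1 probe set correlated with the first at 0.996 over 12 and 0.991 over 8 arrays. The CAVIN1 probe sets stood at 0.665 and 0.869 over 12 arrays and 0.680 and 0.792 over 8. The brighter CAV2 probe set changed from -0.517 over 12 arrays to 0.779 over 8, and 203323_at from -0.704 to 0.402, which restates that CAV2 was high where CAV1 was at the floor.

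**Figure D3:**
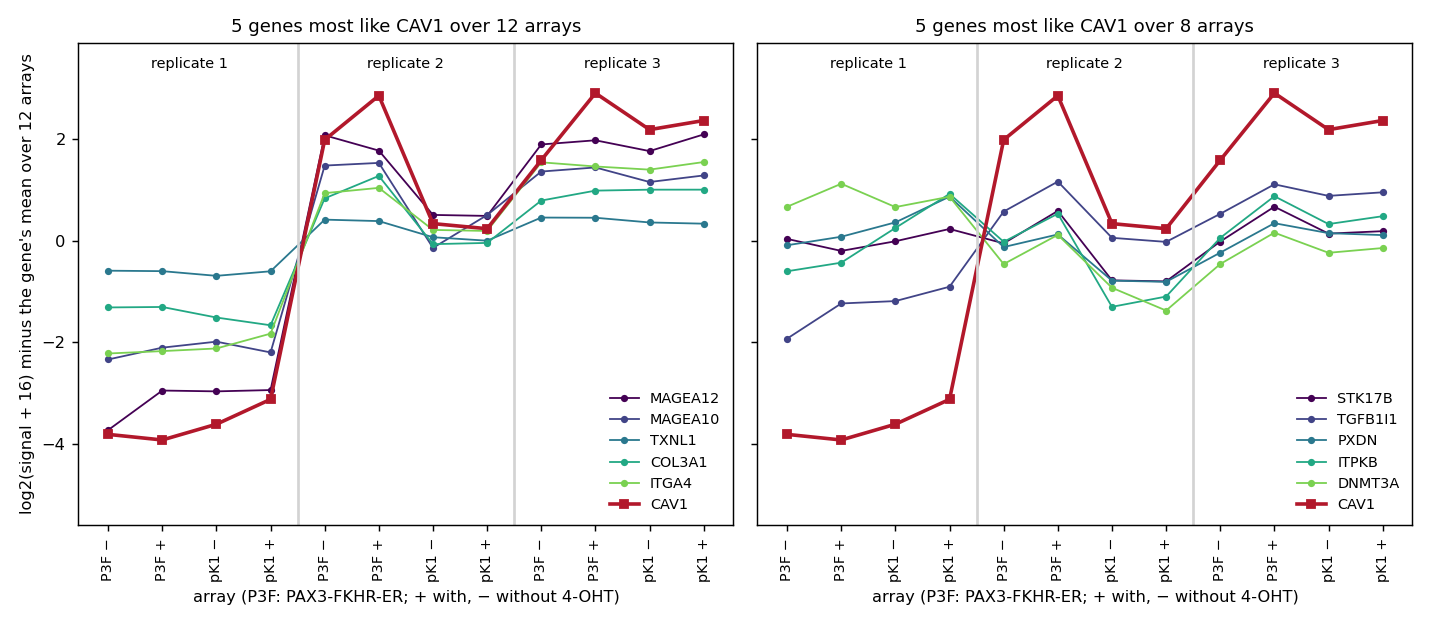
Log2(signal + 16) of CAV1 (red squares, brighter probe set) and of the 5 genes most like it over 12 arrays (left) or over the 8 arrays of replicates 2 and 3 (right), each minus its own mean over 12 arrays, with arrays ordered by replicate number; lines only guide the eye. The genes on the left share the low level in replicate 1, and those on the right, other than TGFB1I1, share only the pattern of replicates 2 and 3.

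Other genes of caveolae were followed through 5 lists of 54 genes, of which 44 had a probe set and 32 passed the filter. Across 12 arrays 0 of 32 passed in limma for 4-OHT under the fusion label, beside 0% of all 13329 probe sets. At an unadjusted p under 0.05 there were 0 of 32, beside 62 of 13329. In the fit to replicates 2 and 3 with the pair as a block, 0 of 32 rose and 0 fell, beside 1.40% called of all probe sets, with 8 of 32 at an unadjusted p under 0.05 beside 1579 of all 13329. The same fit gave 0 of 32 in cells labelled pK1 (0% of all), with 2 at an unadjusted p under 0.05 beside 760 of 13329, and 0 of 32 for the difference between constructs (0.0525% of all), with 5 beside 1313 of 13329. The changes below come from that fit, with its SE and its limma adjusted p. These p-values assume that arrays pair by number, which was not established.

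EHD proteins are ATPases that hold the neck, and PACSINs are membrane-bending proteins that bind them. The median of the 6 tested genes of this list was -0.44 labelled PAX3-FKHR-ER, beside -0.02 for all probe sets, with 5 of 6 negative, and 0.14 labelled pK1, with 2 of 6 negative. EHD4 went from 334 to 199 and from 527 to 231 under the fusion label, and from 259 to 174 and from 453 to 499 under pK1 (-0.92 ± 0.18 SE, adjusted p = 0.0547 under the fusion label). In replicate 1 it read 122 and 124, and 132 and 94.0. PACSIN3, the muscle form, went from 65.7 to 26.6 and from 43.3 to 11.9 against 40.7 to 87.1 and 56.2 to 58.1 (-1.01 ± 0.28 SE, adjusted p = 0.154). It was higher with 4-OHT in the replicate 1 pair under the fusion label, at 47.1 and 68.1. EHD3 (-0.59 ± 0.22 SE, adjusted p = 0.322) and EHD1 (-0.29 ± 0.14 SE, adjusted p = 0.475) followed, and EHD2, the neck protein most tied to caveolae, was the exception at 0.18 ± 0.17 SE in both constructs. The further cavins were dim: CAVIN2 read 1.48 to 29.3 and CAVIN3 16.5 to 79.1, both under the filter, and CAVIN4 was not analysed here.

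Genes listed as caveolin partners in muscle membrane gave a median of -0.01 over 7 genes labelled PAX3-FKHR-ER, and binding of their products to caveolins was not tested. DMD, which encodes dystrophin, went from 95.8 to 178 and from 162 to 263 labelled PAX3-FKHR-ER, and from 68.9 to 68.8 and from 228 to 256 labelled pK1 (0.72 ± 0.16 SE, adjusted p = 0.0712). In replicate 1 the pair labelled pK1 differed more than the pair labelled PAX3-FKHR-ER, from 313 to 625 against 260 to 271, as it did for CAV2. DYSF, the membrane repair protein dysferlin, had -0.38 ± 0.16 SE (adjusted p = 0.399), SGCA, a sarcoglycan, 0.42 ± 0.24 SE (adjusted p = 0.563) and CAPN3, a muscle protease, -0.25 ± 0.23 SE (adjusted p = 0.761). DYSF and SGCA were near the floor in replicate 2 labelled pK1, at 5.34 to 9.33 and 1.62 to 3.29, on the arrays where CAV1 was lowest among the 8.

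No gene of the remaining lists passed the test either. Flotillins and scission genes had a median of -0.07 over 6 genes, led by FLOT1, a flotillin of the inner membrane leaflet (0.32 ± 0.13 SE, adjusted p = 0.384). Signalling proteins found with caveolin had 0.16 over 7 genes, led by PRKCA, protein kinase C alpha (0.52 ± 0.17 SE, adjusted p = 0.249), whose signal was higher with 4-OHT in 6 of 6 pairs. Genes of cholesterol and lipid handling had -0.16 over 6 genes, led by ANXA2, a membrane-binding annexin (0.31 ± 0.13 SE, adjusted p = 0.386). In the comparison of constructs over both treatments 0 of 32 genes passed in limma (0% of all), with 2 at an unadjusted p under 0.05, beside 130 of 13329 probe sets. The 2 were NPC2, a cholesterol carrier (-0.63 ± 0.23 SE), and ADCY6, an adenylyl cyclase (-0.57 ± 0.24 SE), each with adjusted p = 1.

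**Figure D4:**
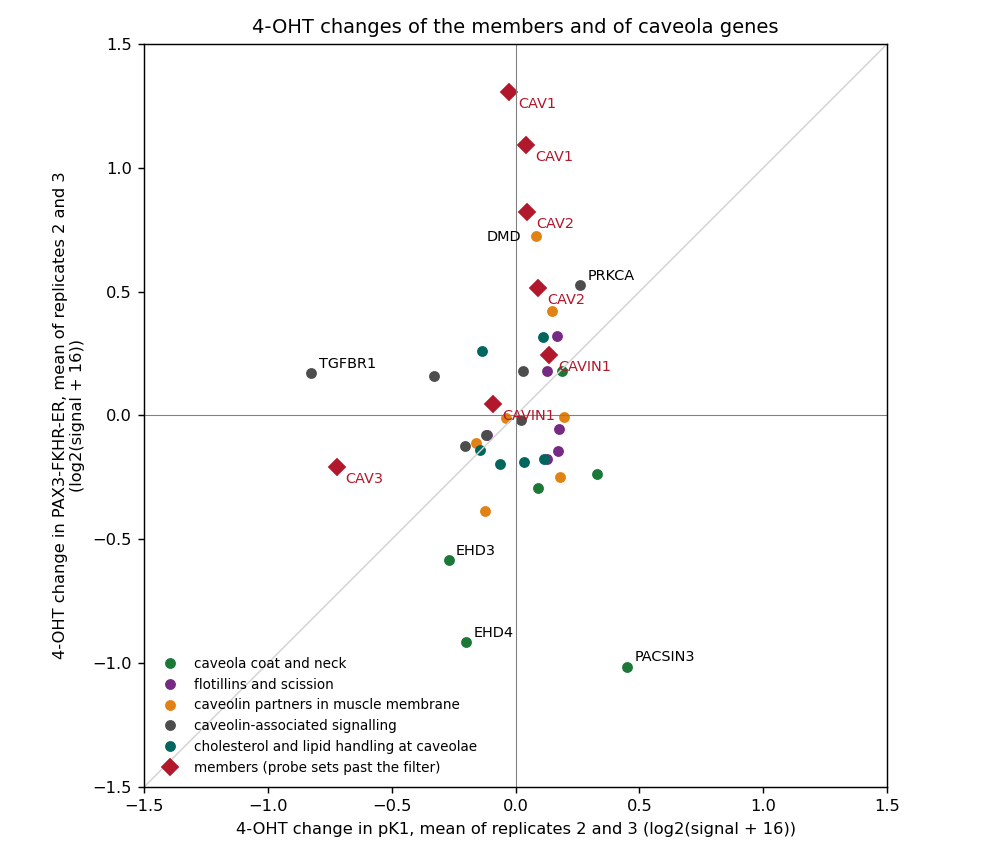
Mean 4-OHT change in replicates 2 and 3 (log2(signal + 16)) labelled pK1 (horizontal) and PAX3-FKHR-ER (vertical) for the 7 member probe sets past the filter (red diamonds) and 32 genes of the 5 lists (1 point a gene); the diagonal marks equal change. CAV1 and CAV2 lie above the diagonal with pK1 changes near 0, and EHD4 (-0.92) and PACSIN3 (-1.01) lie below it.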

How the data were processed

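RNA of 12 samples was measured on Affymetrix expression arrays, 1 each. The deposited values were probe set signals, a linear intensity scale. The submitters' processing notes name GCOS and MAS5, with versions not given in the sources used here. They were used with no further scaling between arrays, and array medians lay between 50.4 and 62.8. No detection calls were used. The array annotation named 19065 probe sets with 1 symbol.

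Signals were taken as log2(signal + 16). Probe sets with a mean signal under 36.7 (the bottom 40%) were dropped, which left 13329. Group means were fitted with limma 3.58.1 in R 4.3.3 (intensity trend, two-sided, Benjamini-Hochberg over all tested probe sets, threshold 0.05), after a test on simulated data. The simulated data held no offset of the replicate 1 arrays, so that test does not show how the fit behaves with one. For the constructs over both treatments, pairs were averaged first. Alternatives were other amounts added, filters and normalizations, a replicate block, replicates 2 and 3 alone, no trend, and each array left out. The fit to replicates 2 and 3 with a block leaves 2 residual degrees of freedom for 4-OHT.

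Deviations from group means correlated within pairs at 0.70 to 0.85, and between same-numbered arrays of different construct at 0.15 to 0.69. Numbers were taken to pair samples by a rule that each exceed 0.1. This rule cannot show that they do, because the offset of the replicate 1 arrays enters each group mean and so every deviation. That shared part alone can make same-numbered arrays correlate, and differently numbered arrays were not compared. Every fit with a block therefore assumes the pairing.

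Members, lists and the choice of replicates 2 and 3 were made with earlier results of these data known. Named list genes were those past the threshold, or up to 4 with the smallest p; likeness took the 5 highest and 3 lowest r. List genes used the probe set of highest mean signal. CAVIN1 had no promoter in the sequence table. Figures were drawn with matplotlib 3.10.9.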

Additional observations from a re-analysis of the deposited data

How the results depend on the processing

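The counts over all probe sets and the CAV1 values were recomputed under each alternative. In the fit to replicates 2 and 3 with the replicate block, probe sets past the threshold numbered 186 for 4-OHT in PAX3-FKHR-ER, 7 for the difference between constructs and 9 for the constructs over both treatments, against 0 in each across 12 arrays; without the block the same 8 arrays gave 0. The block on 12 arrays gave 0 too. The amount added before the log moved CAV1 (212097_at). Its difference between constructs in the 4-OHT change was 0.122 with 1 added and 0.604 with 64, against 0.497 with 16. For the constructs over both treatments it was 0.187 and 0.602, against 0.535. With 1 array left out, CAV1 (212097_at) ranged from 0.374 to 1.09 for 4-OHT in PAX3-FKHR-ER, 0.041 to 0.334 in pK1, 0.183 to 0.901 for their difference and 0.316 to 0.755 for the constructs, and the counts stayed at 0. Either replicate 1 array labelled PAX3-FKHR-ER, left out with its pair, gave 1.09 and 0.901, and either replicate 3 array of that label 0.374 and 0.183. In pK1 leaving out replicate 1 gave 0.041 and replicate 2 gave 0.334, and for the constructs the lowest value came without the replicate 3 fusion array with 4-OHT. Of the 5 genes most like CAV1 over 12 arrays, 0 were among the 5 over the 8 arrays. Signals under 16, as CAV1 in replicate 1, have no reliable order, and 2 or 3 pairs a construct limit every SD.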
